A study of Mus musculus with 8 samples.

Results

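The 49 genes described here encode the proteins that copy DNA in S phase, the part of the cell cycle in which the genome is duplicated. They were given as a fixed list of symbols. No measured value set its members, but the list was chosen with earlier results of these data known. They were measured in mammary tumors of mice with and without the microRNA miR-21, untreated or irradiated. For each gene, the log2 values of all probe sets annotated with that single symbol were averaged in each array. All 49 of the 49 genes were measured, with 781 probe sets, among 23152 genes in all. Irradiated miR-21-/-;MMTV-PyMT, irradiated miR-21+/+;MMTV-PyMT, untreated miR-21-/-;MMTV-PyMT and untreated miR-21+/+;MMTV-PyMT tumors had 2 arrays each. Every mouse was a female that carried the polyomavirus middle T antigen under the MMTV promoter, which is active mainly in mammary epithelium, and the miR-21-/- genotype was not limited to the tumor cells. According to the labels, the dose was 8 Gy, tumors were irradiated at 1000 mm3 and then left to grow to 2000 mm3, and mice were monitored for 18 weeks or to an end point. The text of the study gives another dose. Its methods also describe growth to 2000 mm3 after irradiation, but a figure legend gives an earlier collection. The interval between irradiation and RNA extraction is therefore not settled. No source states that the arrays of a group came from separate mice, and p-values therefore measure the spread between these samples only.

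Replication starts at origins, where the origin recognition complex, CDC6 and CDT1 load the ring-shaped MCM2-7 helicase in G1. At S-phase entry, kinases, CDC45 and the GINS complex switch the helicase on, primase and the DNA polymerases alpha, delta and epsilon copy the strands, and RFC loads PCNA, the sliding clamp that holds polymerases on DNA. Transcription of many of these genes rises in late G1 under E2F factors, which RB proteins hold back in resting cells, so that their RNA is widely used as a sign of proliferation in tumors.

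RefSeq promoters (build GRCm38.p6), from 250 bases before to 50 bases after the annotated start, were at hand for 41 of the 49 genes. The letters TTTCGCGC, TTTGGCGC or TTTCCCGC, common forms of the E2F motif, were found on either strand in 15 of these 41 (36.6%), against 2.12% of the 27025 genes with such a window and 2.76% of the 17491 coding genes. TTTCGCGC was in 17.1% of the 41 windows and 0.374% of all, TTTGGCGC in 14.6% and 0.585%, and TTTCCCGC in 17.1% and 1.24%. The 15 genes were Mcm3, Mcm5, Mcm6, Mcm7, Orc1, Cdc6, Cdt1, Gins3, Rfc3, Pola1, Pold1, Pold3, Pole2, Lig1 and Uhrf1. The letters CCAAT were in 58.5% of the 41 windows, against 41.1% of all, and TTTGAA, the CHR element of many mitotic genes, was in 12.2%, against 20.2% of all. Gins1, Gins2, Gins4, Mcm4, Rfc2, Prim2, Pole and Ccne2 had no window in the table.

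Of the 7 genes with an E2F match whose RNA levels met the thresholds in the comparisons below, the windows of the 5 with the smallest p are shown, leaving out Mcm7 and Pole2. That of Tk1 is shown because Tk1 had the largest genotype difference. That of Rpa3, a gene with 3 probe sets, is shown because its differences between groups were small, from -0.38 to 0.19. Each window is written 5′ to 3′ on the strand of the gene, with E2F matches in capitals. In Mcm5 the capitals from position 98, counted from the 5′ end, are a TTTCGCGC that overlaps a TTTGGCGC read on the opposite strand, and Mcm6 has the same pair in mirror image from position 141 and another TTTGGCGC at position 204. Mcm3 has TTTCCCGC on the opposite strand at position 270 and TTTGGCGC at position 289, both after the start, Cdt1 has TTTGGCGC at position 283, and Cdc6 has TTTCCCGC on the opposite strand at position 113. None of the 3 forms was in the windows of Tk1 and Rpa3, which says only that these letters are not there.
Mcm3, chr1:20820263-20820562, minus strand: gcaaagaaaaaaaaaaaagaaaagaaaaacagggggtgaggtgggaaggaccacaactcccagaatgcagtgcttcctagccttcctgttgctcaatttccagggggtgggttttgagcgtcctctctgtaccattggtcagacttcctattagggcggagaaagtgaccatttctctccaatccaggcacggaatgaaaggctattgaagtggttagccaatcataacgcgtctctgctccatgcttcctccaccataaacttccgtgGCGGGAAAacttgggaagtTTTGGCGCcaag
Mcm5, chr8:75109259-75109558, plus strand: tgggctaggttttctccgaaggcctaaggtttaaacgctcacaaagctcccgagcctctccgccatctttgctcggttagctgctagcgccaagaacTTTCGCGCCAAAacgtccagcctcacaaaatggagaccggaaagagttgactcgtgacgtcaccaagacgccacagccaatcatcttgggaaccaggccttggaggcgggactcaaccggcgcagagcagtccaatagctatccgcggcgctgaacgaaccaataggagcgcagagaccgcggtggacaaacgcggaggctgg
Mcm6, chr1:128359656-128359955, minus strand: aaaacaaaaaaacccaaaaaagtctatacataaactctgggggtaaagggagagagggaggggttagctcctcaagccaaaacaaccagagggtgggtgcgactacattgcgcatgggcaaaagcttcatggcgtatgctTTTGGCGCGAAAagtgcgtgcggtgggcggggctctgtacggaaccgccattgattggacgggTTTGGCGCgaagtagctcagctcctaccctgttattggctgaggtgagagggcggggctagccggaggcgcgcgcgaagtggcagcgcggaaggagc
Cdt1, chr8:122567765-122568064, plus strand: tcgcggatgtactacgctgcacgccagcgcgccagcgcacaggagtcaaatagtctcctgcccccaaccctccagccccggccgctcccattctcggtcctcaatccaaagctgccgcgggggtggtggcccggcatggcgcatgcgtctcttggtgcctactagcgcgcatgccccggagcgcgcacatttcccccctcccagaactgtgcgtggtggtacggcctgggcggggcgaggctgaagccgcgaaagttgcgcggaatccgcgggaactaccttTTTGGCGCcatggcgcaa
Cdc6, chr11:98907901-98908200, plus strand: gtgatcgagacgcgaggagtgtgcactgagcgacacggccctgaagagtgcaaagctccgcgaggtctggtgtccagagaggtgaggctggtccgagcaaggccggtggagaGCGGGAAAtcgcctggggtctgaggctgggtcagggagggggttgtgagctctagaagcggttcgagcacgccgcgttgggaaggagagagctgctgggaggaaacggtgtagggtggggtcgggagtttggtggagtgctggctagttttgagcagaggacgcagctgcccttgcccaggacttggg
Tk1, chr11:117825965-117826264, minus strand: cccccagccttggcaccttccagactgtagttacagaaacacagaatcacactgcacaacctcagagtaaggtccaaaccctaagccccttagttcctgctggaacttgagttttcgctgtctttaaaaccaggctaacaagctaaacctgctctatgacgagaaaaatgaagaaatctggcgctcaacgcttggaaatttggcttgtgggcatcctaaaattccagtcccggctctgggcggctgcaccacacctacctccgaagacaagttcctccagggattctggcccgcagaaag
Rpa3, chr6:8259092-8259391, minus strand: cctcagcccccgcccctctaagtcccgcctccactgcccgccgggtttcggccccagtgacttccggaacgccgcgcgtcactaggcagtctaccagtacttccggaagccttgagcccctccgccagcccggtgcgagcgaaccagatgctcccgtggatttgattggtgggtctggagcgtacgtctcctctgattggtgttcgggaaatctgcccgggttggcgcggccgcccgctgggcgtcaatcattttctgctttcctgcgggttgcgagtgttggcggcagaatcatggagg

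The probe set shared by Mir21 and its host gene Vmp1 had log2 levels of 1.69 and 1.97 in irradiated miR-21-/- tumors and 2.75 and 3.08 in irradiated miR-21+/+ tumors. In untreated tumors it had 2.02 and 2.0 in miR-21-/- and 2.50 and 2.34 in miR-21+/+. Each miR-21-/- array lay below each miR-21+/+ array, although the signal was dim and shared with Vmp1. Replicate 1 of irradiated miR-21-/- tumors stood apart, since it correlated at 0.898 to 0.915 with the rest across genes, whereas the 21 remaining pairs of arrays had 0.955 to 0.987. Its 15 measured adipocyte markers averaged 10.12, against 4.49 to 5.30 in the other arrays. Luminal epithelial markers, which define the labelled tumor, averaged 6.85 in that array and 7.93 to 8.45 in the other 7, and Krt8 and Krt18 were at 8.37 or above in every array. Fibroblast markers averaged 8.58 and endothelial markers 6.79 in that array, against 6.14 to 6.80 and 4.98 to 5.93 in the others. The median level over all genes was 5.08 to 5.16 in the 8 arrays, whose number limits the precision.

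The 49 genes had a common order among the groups. The mean level over the 49 was 5.70 and 5.81 on the log2 scale in irradiated miR-21-/- tumors, 6.17 and 6.40 in irradiated miR-21+/+ tumors, 6.16 and 6.16 in untreated miR-21-/- tumors, and 7.16 and 6.76 in untreated miR-21+/+ tumors. The irradiated miR-21-/- arrays were the lowest, the untreated miR-21+/+ arrays the highest, and the other groups lay between them, close to each other. Of the 49 genes, 43 had their lowest group mean in irradiated miR-21-/- tumors, 48 had their highest in untreated miR-21+/+ tumors, and 34 were lower in untreated miR-21-/- than in irradiated miR-21+/+ tumors. Both irradiated miR-21-/- arrays lay below the other 6 in 33 of the 49 genes, against 8.11% of all genes, and both untreated miR-21+/+ arrays lay above the other 6 in 40 of the 49, against 8.36% of all genes. Replicate 1 of untreated miR-21+/+ tumors was above replicate 2 in 49 of 49 genes and was the highest of the 8 arrays in 48. For these counts and those of the group means, the share of all genes was not computed. In whole tumors, fewer cells in S phase and less of these RNAs per cell cannot be told apart.

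**Figure D1:**
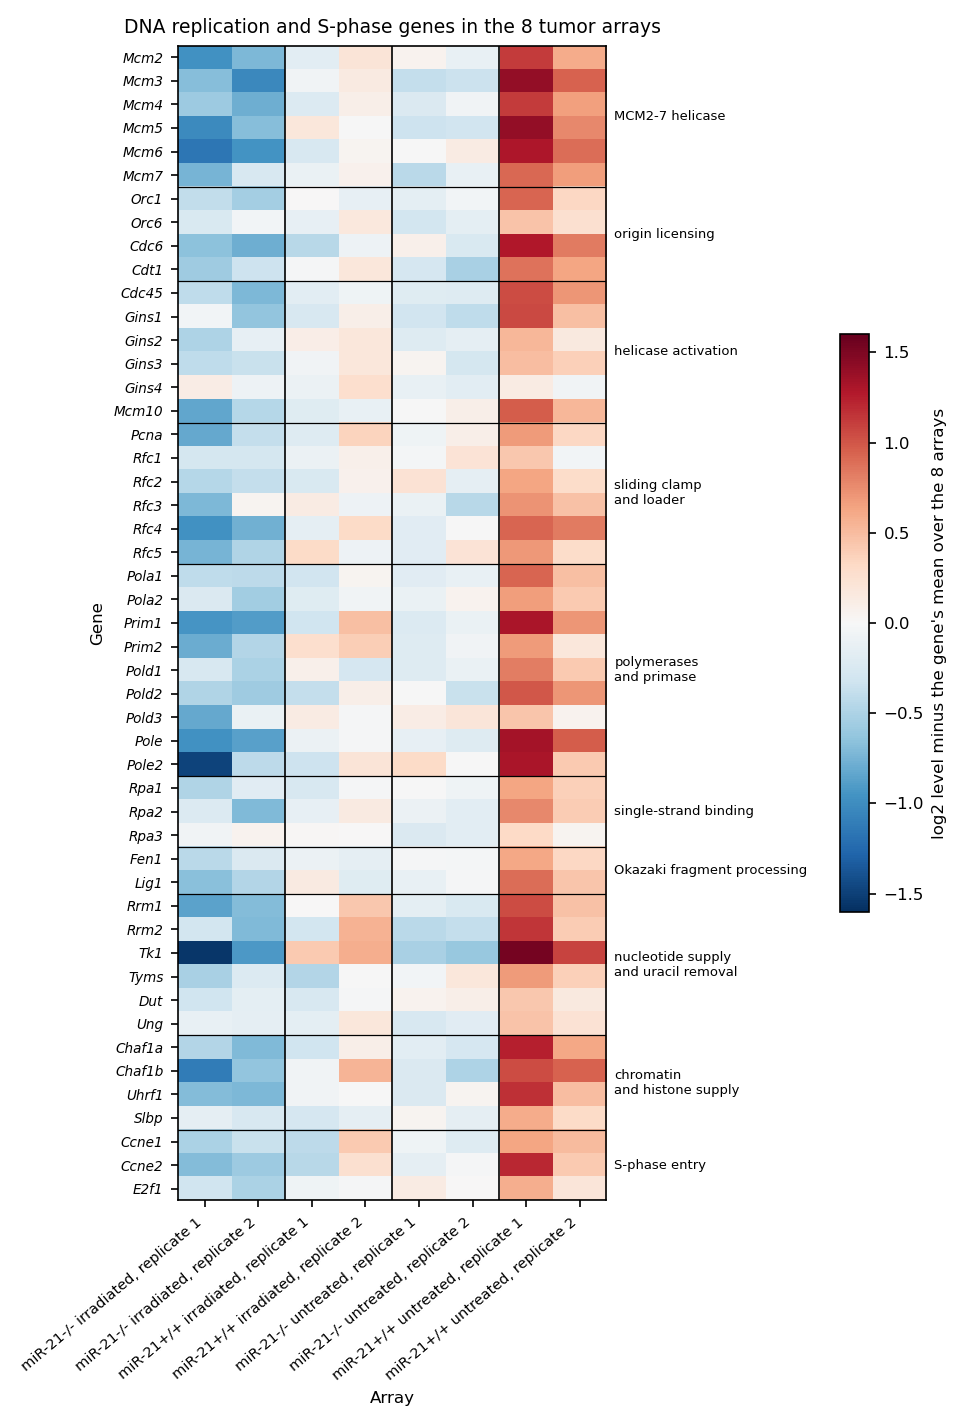
Log2 level of each of the 49 genes (rows, grouped by role) in each of the 8 arrays (columns), minus the mean of that gene over the 8 arrays; blue is below and red above that mean. The 2 irradiated miR-21-/- columns are mostly blue and the 2 untreated miR-21+/+ columns mostly red, with replicate 1 the darker of the red pair, while Gins4 and Rpa3 are pale throughout.

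In untreated tumors, where the question was what the absence of miR-21 changes without radiation, genes of the helicase, its loading and activation, the polymerases, nucleotide supply and chromatin assembly fell in miR-21-/- tumors, while none of the clamp and loader, RPA, Okazaki fragment and S-phase entry genes met the thresholds. All 49 had a negative log2 difference, with a median of -0.74, against 0.03 over all genes. At the thresholds of the study, a change of 2-fold or more in either direction and an unadjusted limma p under 0.05, 16 of the 49 fell and none rose, against 2.16% lower and 0.955% higher among all genes. Before the fold threshold, 38 were lower with an unadjusted p under 0.05, against 7.3% of all genes. With Benjamini-Hochberg adjustment over all genes, 3 of the 49 (Tk1, Pole and Mcm3) fell, against 0.32% of all genes. The arrays of the groups did not overlap in 47 of the 49, all lower in miR-21-/-, against 24.4% of all genes, and Rfc1 and Pold3 were the exceptions.

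Of the 6 genes of the MCM2-7 helicase, 5 fell in untreated miR-21-/- tumors. Mcm3 had 5.98 and 6.02 in miR-21-/- tumors, against 7.77 and 7.31 in miR-21+/+ tumors, a log2 difference of -1.54 (standard error 0.22, adjusted p = 0.0413 from limma), or 2.91-fold lower. Mcm5 had 6.37 and 6.40 in miR-21-/- and 8.11 and 7.48 in miR-21+/+ tumors (difference -1.41, standard error 0.24, adjusted p = 0.066). Mcm6 had 6.79 and 6.92 in miR-21-/- and 8.09 and 7.69 in miR-21+/+ tumors (-1.04, standard error 0.21, adjusted p = 0.0939). The miR-21-/- replicates of these genes lay close together, below both miR-21+/+ values. Mcm7 (-1.06) and Mcm4 (-1.03) also met both thresholds. Mcm2 had 6.41 and 6.23 in miR-21-/- tumors and 7.47 and 6.95 in miR-21+/+ tumors, and its difference of -0.89 (standard error 0.24) stayed under 2-fold. Without overlap between the groups, the whole helicase thus differed by -1.54 to -0.89.

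Among the factors that load and switch on the helicase, both loading factors fell. Cdt1 had 6.10 and 5.85 in miR-21-/- and 7.23 and 7.0 in miR-21+/+ tumors (difference -1.14, standard error 0.19, adjusted p = 0.0636 from limma). Cdc6 had 5.31 and 4.98 in miR-21-/- and 6.51 and 6.06 in miR-21+/+ tumors, also a difference of -1.14. Orc1 and Orc6, subunits of the origin recognition complex, differed by -0.73 and -0.59. Cdc45, which completes the active helicase together with the GINS complex, had 5.01 and 5.0 in miR-21-/- and 6.25 and 5.91 in miR-21+/+ tumors (difference -1.07, standard error 0.20, adjusted p = 0.072). Of the GINS genes, Gins1 fell by 1.12, while Gins2 (-0.52) and Gins3 (-0.55) differed by less. Gins4 had 7.76 and 7.71 in miR-21-/- and 8.00 and 7.82 in miR-21+/+ tumors, a difference of -0.17 with a 95% interval of -0.62 to 0.28, and only 4 of its 9 probe sets were lower. Mcm10, which helps to open the origin, differed by -0.71.

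At the fork itself, the catalytic subunit of the leading-strand polymerase stood out. Pole had 5.62 and 5.55 in miR-21-/- tumors, against 7.08 and 6.72 in miR-21+/+ tumors, a difference of -1.31 (standard error 0.18, adjusted p = 0.0375 from limma), with 40 of its 43 probe sets lower. Prim1, the catalytic subunit of primase (-1.17), and Pold2 of polymerase delta (-1.03) met both thresholds as well. Pola1 (-0.85), Pold1 (-0.77), Pole2 (-0.71), Pola2 (-0.57) and Prim2 (-0.57) did not, nor did Pold3 (-0.10), whose groups overlapped. None of the clamp and clamp loader genes met the thresholds, with Rfc4 at -0.97, Rfc3 at -0.87, Pcna at -0.50, Rfc5 at -0.48, Rfc2 at -0.41 and Rfc1 at -0.10. Pcna had 7.67 and 7.83 in miR-21-/- and 8.42 and 8.07 in miR-21+/+ tumors, without overlap (95% interval of the difference -1.10 to 0.10). The RPA genes, whose product coats single-stranded DNA, differed by -0.72 (Rpa2), -0.54 (Rpa1) and -0.38 (Rpa3), and Lig1 and Fen1, which process Okazaki fragments, by -0.74 and -0.51.

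The largest difference of the 49 belonged to nucleotide supply. Tk1, which encodes the thymidine salvage kinase, had 6.56 and 6.48 in miR-21-/- tumors, against 8.61 and 8.16 in miR-21+/+ tumors, a difference of -1.87 (standard error 0.26, adjusted p = 0.0375 from limma), or 3.64-fold lower. Rrm2, the S-phase subunit of ribonucleotide reductase, had 5.5 and 5.55 in miR-21-/- and 7.07 and 6.34 in miR-21+/+ tumors and fell by 1.18. The other subunit gene, Rrm1, differed by -0.96, and Ung, Tyms and Dut by -0.56, -0.47 and -0.22. Chaf1b, a subunit of the histone chaperone CAF-1, had 6.17 and 5.91 in miR-21-/- and 7.44 and 7.34 in miR-21+/+ tumors (-1.35, standard error 0.26, adjusted p = 0.0842), and its partner Chaf1a fell by 1.15. Uhrf1, which maintains DNA methylation behind the fork, and Slbp, which binds histone mRNA, differed by -0.93 and -0.51. The regulators of entry had smaller differences. Ccne1 had 5.57 and 5.44 in miR-21-/- and 6.28 and 6.15 in miR-21+/+ tumors (-0.71), Ccne2 differed by -0.89, and E2f1 had 5.73 and 5.6 in miR-21-/- and 6.17 and 5.79 in miR-21+/+ tumors (-0.31).

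The size of these differences rested in part on replicate 1 of untreated miR-21+/+ tumors. Without it, the median was -0.54, and without replicate 2 of the same group it was -1.0, against -0.74 with all arrays. The 3 calls at the adjusted threshold were lost in most fits that left out 1 array.

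**Figure D2:**
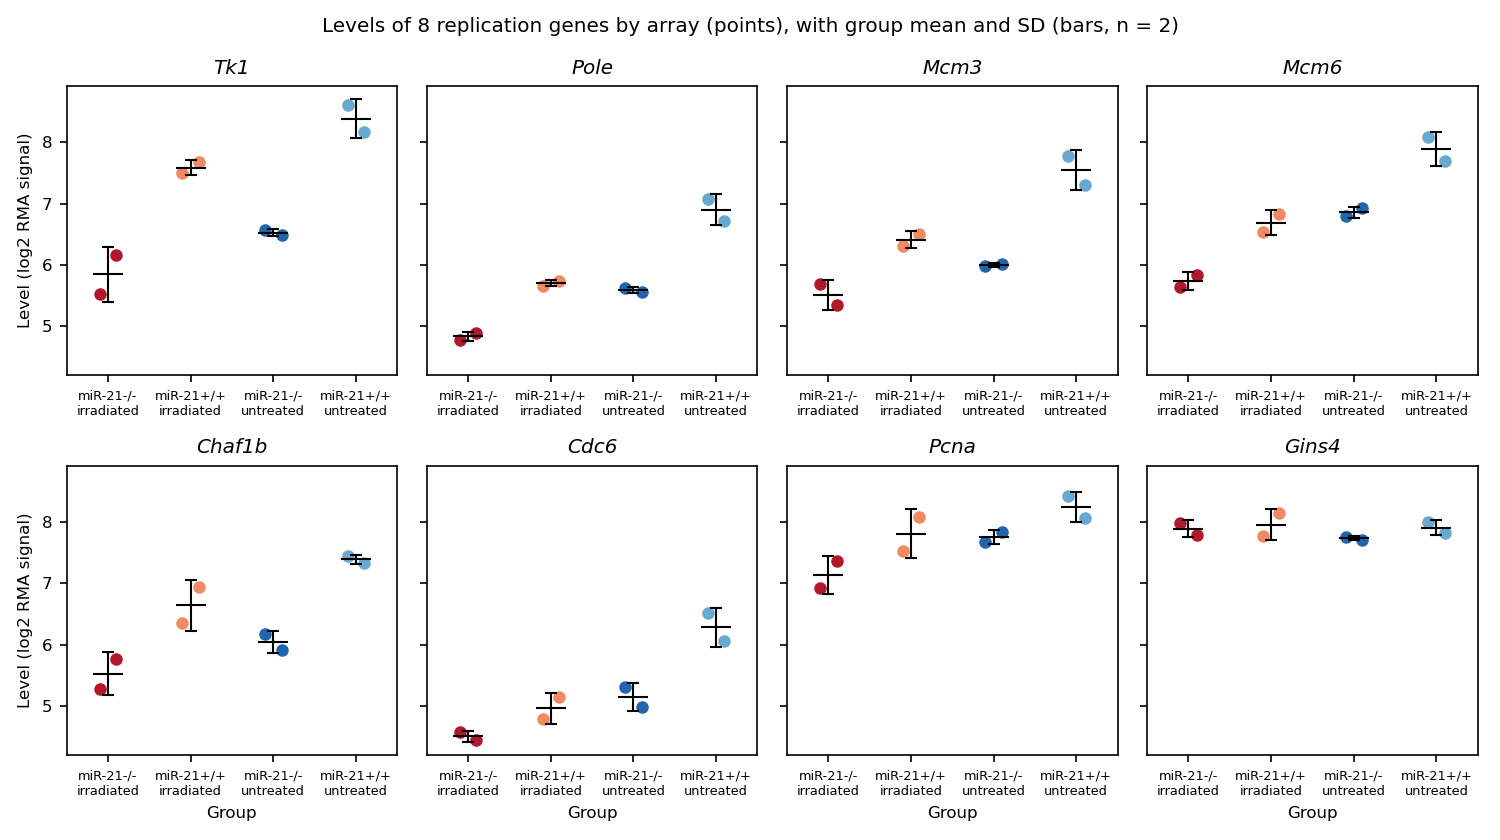
Log2 level of 8 genes in each array (points), with the group mean and SD (bars, n = 2); groups run from irradiated miR-21-/- on the left to untreated miR-21+/+ on the right. Tk1, Pole and Mcm3 are separated by genotype within each treatment, whereas the Gins4 points of the 4 groups lie between 7.71 and 8.14.

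In irradiated tumors, the absence of miR-21 went with lower values in the same direction but mostly under 2-fold. Of the 49, 48 had a negative log2 difference (all but Slbp, 0.01), the median was -0.47, and 18 were lower with an unadjusted p under 0.05, against 8.86% of all genes. Tk1 and Chaf1b met the thresholds of the study. These 2 of 49 are close to the background, since 2.63% of all genes were lower and 1.33% higher. Tk1 was the only one of the 49 to pass the adjusted threshold, which 0.333% of all genes passed downward. The groups did not overlap in 36 of the 49, all lower in miR-21-/-, against 22.6% of all genes.

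Tk1 had 5.53 and 6.16 in irradiated miR-21-/- tumors, against 7.50 and 7.67 in irradiated miR-21+/+ tumors, a difference of -1.74 (standard error 0.26, adjusted p = 0.0459 from limma), or 3.34-fold lower. Chaf1b had 5.28 and 5.77 in miR-21-/- and 6.35 and 6.94 in miR-21+/+ tumors (-1.12, standard error 0.26, adjusted p = 0.138). Neither gene overlapped between the groups. Pole had 4.78 and 4.88 in miR-21-/- and 5.66 and 5.73 in miR-21+/+ tumors (-0.87, standard error 0.18, adjusted p = 0.108). Rfc4, which belongs to the clamp loader, had 5.33 and 5.53 in miR-21-/- and 6.16 and 6.60 in miR-21+/+ tumors (-0.95, standard error 0.20, adjusted p = 0.113). Both lay below 2-fold, with replicates closer to each other than to the other genotype.

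Of the helicase genes, Mcm6 (-0.95), Mcm5 (-0.94), Mcm3 (-0.90), Mcm2 (-0.86) and Mcm4 (-0.63) had an unadjusted p under 0.05, and Mcm7 (-0.48) did not. Mcm2 had 5.39 and 5.64 in miR-21-/- and 6.18 and 6.56 in miR-21+/+ tumors, without overlap. Primase differed in both subunits (Prim1 -0.99, Prim2 -0.96), as did ribonucleotide reductase in its large subunit Rrm1 (-0.99). Rrm2 had 5.64 and 5.23 in miR-21-/- and 5.64 and 6.49 in miR-21+/+ tumors, and its difference of -0.62 (standard error 0.34) was within the spread of the replicates. Cdc6 had 4.57 and 4.44 in miR-21-/- and 4.78 and 5.14 in miR-21+/+ tumors (-0.45), and Pcna had 6.92 and 7.36 in miR-21-/- and 7.53 and 8.09 in miR-21+/+ tumors (-0.67). Cdt1 (-0.54), Gins3 (-0.44), Rfc5 (-0.72), Lig1 (-0.55) and Uhrf1 (-0.68) were the remaining genes with an unadjusted p under 0.05.

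The regulators of entry did not reach an unadjusted p of 0.05 in irradiated tumors. Ccne1 had 5.14 and 5.29 in miR-21-/- and 5.23 and 6.06 in miR-21+/+ tumors (-0.43), so the groups overlapped. E2f1 had 5.27 and 5.09 in miR-21-/- and 5.53 and 5.57 in miR-21+/+ tumors (-0.37), and Ccne2 differed by -0.54. The other genes differed by -0.51 (Pold3) to 0.01 (Slbp), apart from Pole2, at -0.89 with a standard error of 0.42. Rpa3 had 6.73 and 6.84 in miR-21-/- and 6.81 and 6.79 in miR-21+/+ tumors, with a 95% interval of -0.42 to 0.38.

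Single arrays moved the values of irradiated tumors as well. The median was -0.56 without replicate 1 of irradiated miR-21+/+ tumors and -0.39 without replicate 2 of that group, against -0.47 with all arrays. Without the adipocyte-rich replicate 1 of irradiated miR-21-/- tumors it was -0.45. The adjusted call of Tk1 was lost in most fits that left out 1 array. Markers of other cells moved with this comparison. All 20 luminal markers were lower in miR-21-/- tumors, with a median of -0.98 and 7 below the thresholds, all 15 fibroblast and all 15 adipocyte markers were higher, with medians of 1.22 and 2.70 and 3 and 1 of them past the thresholds, and of 14 macrophage markers 4 rose and 1, Cd14, fell. The fibroblast and adipocyte differences rested on replicate 1 of irradiated miR-21-/- tumors, since replicate 2 averaged 6.78 for the fibroblast and 4.76 for the adipocyte markers, against 6.18 and 6.78, and 4.49 and 5.30, in irradiated miR-21+/+ tumors. The luminal differences rested in part on it too. Luminal markers averaged 6.85 in replicate 1 and 8.01 in replicate 2, against 8.45 and 8.36 in irradiated miR-21+/+ tumors. Replicate 2 thus lay nearer to the miR-21+/+ arrays than to replicate 1. In untreated tumors the luminal, fibroblast, adipocyte and macrophage markers had medians of -0.11, -0.33, 0.11 and -0.40. Their part in the values of the replication genes was not tested. In a fit with the adipocyte markers as a covariate, the median was -0.44 in irradiated and -0.75 in untreated tumors. That covariate was 10.12 in replicate 1 of irradiated miR-21-/- tumors and 4.49 to 5.30 in the other arrays. It therefore mainly sets that array apart and cannot tell cell content from its other traits.

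The genotype comparisons share no array, so their values can be set side by side. Of the 49, 48 were negative in both, and 41 were more negative in untreated tumors. Across the 49 genes, which are not independent, the differences had a Pearson r of 0.68, against 0.21 across all genes. Averaged over both treatments, 6 genes (Tk1, Chaf1b, Mcm3, Mcm5, Pole and Prim1) were lower at the thresholds of the study and none higher, against 1.47% and 0.488% of all genes, and 13 passed the adjusted threshold downward, against 1.98%. The 13 were Tk1, Pole, Mcm3, Mcm5, Mcm6, Chaf1b, Rfc4, Cdt1, Rrm1, Cdc45, Mcm4, Mcm2 and Prim1. The mean genotype difference was -1.80 for Tk1 (standard error 0.18, adjusted p = 0.00933 from limma), -1.09 for Pole (0.13, 0.0103) and -1.22 for Mcm3 (0.16, 0.0125), with a median of -0.62 over the 49. All 4 miR-21-/- arrays lay below all 4 miR-21+/+ arrays in 11 of the 49, against 6.14% of all genes. That median was -0.72 without replicate 1 of irradiated miR-21+/+ tumors and -0.53 without replicate 1 of untreated miR-21+/+ tumors. The 13 calls at the adjusted threshold were lost in most fits that left out 1 array.

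**Figure D3:**
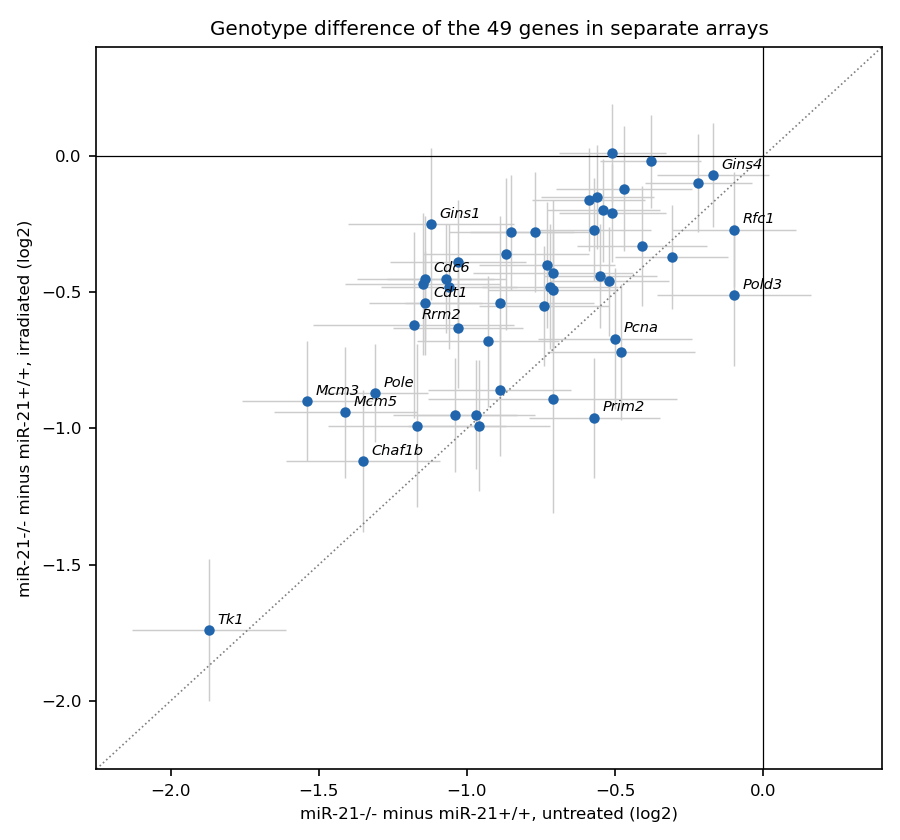
Log2 difference of miR-21-/- minus miR-21+/+ tumors for each of the 49 genes, in irradiated tumors (vertical axis) and in untreated tumors (horizontal axis), with standard errors as bars and equality as the dotted line. Points lie below 0 on both axes except Slbp, most lie above the dotted line (41 of 49, a larger difference in untreated tumors), and Tk1 is the lowest on both axes.

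Radiation went with lower replication genes in miR-21+/+ tumors. Of the 49, 48 had a negative difference (all but Gins4, 0.05), with a median of -0.69, and 31 were lower with an unadjusted p under 0.05, against 4.63% of all genes. At the thresholds of the study, 5 fell (Cdc6, Mcm6, Pole, Mcm3 and Chaf1a) and none rose, against 0.942% lower and 1.16% higher among all genes. At the adjusted threshold from limma the count of the 49 was 0, against 0.108% of all genes. The groups did not overlap in 41, all lower after irradiation, against 22.3% of all genes. The untreated miR-21+/+ arrays are also those of the untreated genotype comparison, so the lower values in both share their high level.

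Cdc6 had 4.78 and 5.14 in irradiated miR-21+/+ tumors, against 6.51 and 6.06 in untreated miR-21+/+ tumors, a difference of -1.33 (standard error 0.23, adjusted p = 0.0971 from limma). Pole had 5.66 and 5.73 in irradiated and 7.08 and 6.72 in untreated tumors (-1.20, standard error 0.18, adjusted p = 0.0651). Mcm6 had 6.54 and 6.83 in irradiated and 8.09 and 7.69 in untreated tumors (-1.20, standard error 0.21, adjusted p = 0.0962). These genes of licensing, helicase and polymerase thus had the smallest p, each without overlap. Mcm3 had 6.31 and 6.51 in irradiated and 7.77 and 7.31 in untreated tumors (-1.13), and Chaf1a had 5.33 and 5.75 in irradiated and 6.90 and 6.27 in untreated tumors (-1.04). Mcm5 (-1.0), Pold2 (-0.99) and Cdc45 (-0.99) lay at the edge of the fold threshold. Tk1, which led both genotype comparisons, had 7.50 and 7.67 in irradiated and 8.61 and 8.16 in untreated tumors (-0.80, standard error 0.26). Mcm2 differed by -0.84, Ccne2 by -0.91, Rrm2 by -0.65, Ccne1 by -0.57, Pcna by -0.44 and E2f1 by -0.43, and the arrays of Pcna and Rrm2 overlapped. The median was -0.51 without replicate 1 and -0.86 without replicate 2 of untreated miR-21+/+ tumors, against -0.69 with all arrays. The calls changed as well when single arrays were left out.

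In miR-21-/- tumors, radiation went with a median difference of -0.38, and 44 of the 49 were negative. Mcm6 and Pole2 fell at the thresholds of the study and none rose, against 1.33% lower and 1.70% higher among all genes, and 15 were lower with an unadjusted p under 0.05, against 6.45%. At the adjusted threshold from limma the count was 0, against 0.013% of all genes. The groups did not overlap in 39 that were lower, against 23.8% of all genes, and in 3 that were higher, against 16.4%. Mcm6 had 5.63 and 5.84 in irradiated miR-21-/- tumors, against 6.79 and 6.92 in untreated miR-21-/- tumors (-1.12, standard error 0.21, adjusted p = 0.188 from limma). Pole had 4.78 and 4.88 in irradiated and 5.62 and 5.55 in untreated tumors (-0.76, standard error 0.18, adjusted p = 0.262), and Rfc4 had 5.33 and 5.53 in irradiated and 6.12 and 6.29 in untreated tumors (-0.78, standard error 0.20, adjusted p = 0.289). The replicates of these 3 genes were close and the groups well apart. Pole2, the second subunit of polymerase epsilon, had 4.54 and 5.61 in irradiated and 6.33 and 6.02 in untreated tumors (-1.10), with its irradiated replicates farthest apart of the 49 genes. The median of the 49 was -0.37 without replicate 1 and -0.44 without replicate 2 of irradiated miR-21-/- tumors. The calls of Mcm6 and Pole2 were not both kept when single arrays were left out. Cdt1 (-0.06), Rfc3 (-0.06), Rrm2 (-0.09), Gins1 (0.02), Orc6 (0.09), Ung (0.09), Gins4 (0.15) and Rpa3 (0.19) hardly differed. Markers of other cells moved here too. All 15 fibroblast, 15 adipocyte and 14 macrophage markers were higher after irradiation, with medians of 1.24, 2.69 and 0.95 and 8, 1 and 6 past the thresholds. Of 20 luminal markers 17 were lower (median -0.75), with 3 lower and 1 higher at the thresholds. The luminal and adipocyte shifts rested mostly on irradiated replicate 1. Irradiated replicate 2 averaged 8.01 and 4.76 for these lists, against 7.98 and 8.05, and 4.55 and 4.58, in untreated miR-21-/- tumors. For fibroblast and macrophage markers that replicate averaged 6.78 and 6.99, against 6.23 and 6.22, and 6.04 and 6.02. The part of these markers in the values of the replication genes was not tested.

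**Figure D4:**
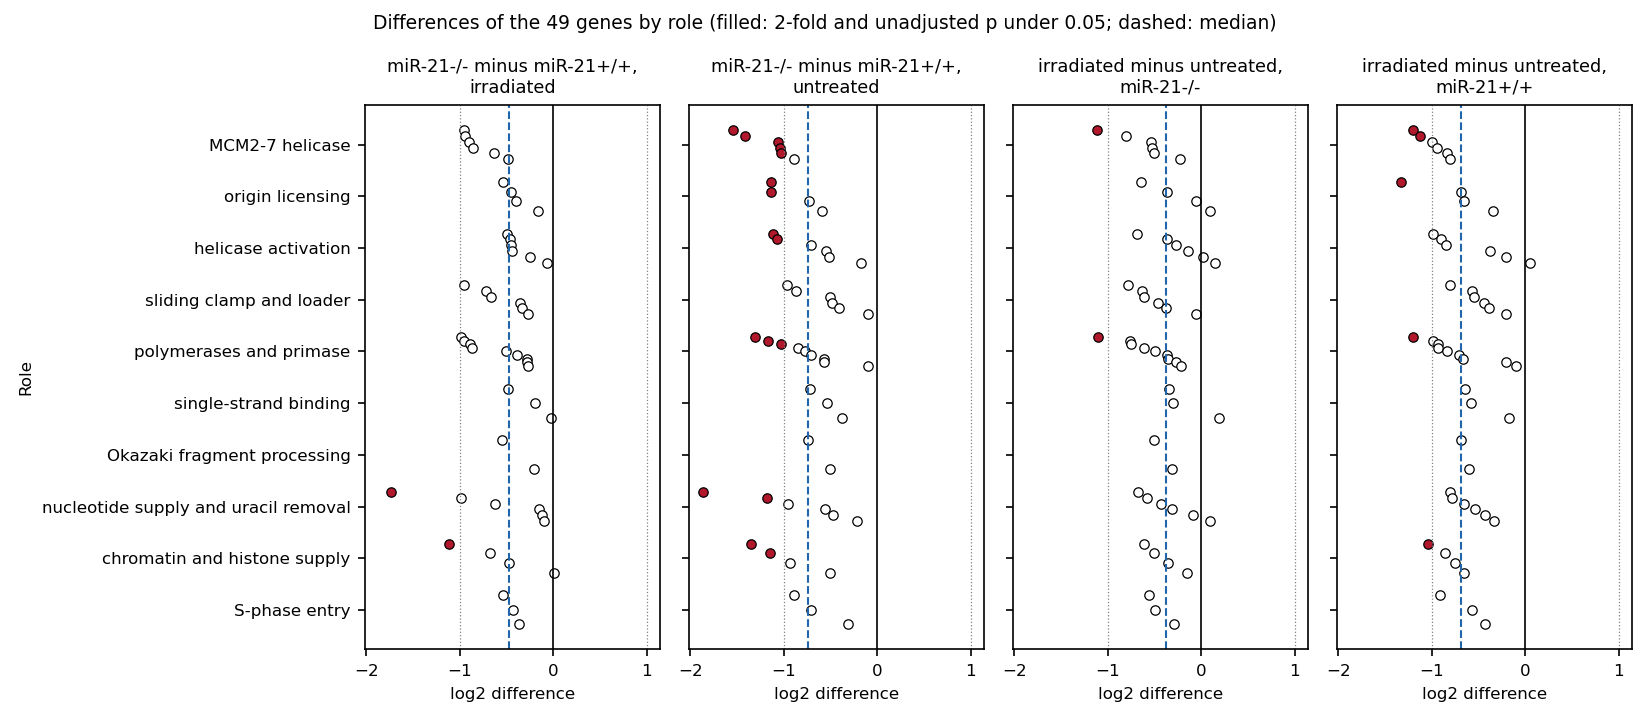
Log2 differences of the 49 genes by role (rows) in 4 comparisons (panels); filled points met both thresholds of the study, dotted lines mark 2-fold, and the dashed line is the median of the 49. Nearly all points lie left of 0, with 16 filled points in the untreated genotype comparison, 5 for radiation in miR-21+/+ tumors and 2 in each of the other panels.

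The radiation comparisons share no array either. Of the 49, 44 were negative in both and 41 were more negative in miR-21+/+ tumors, and the differences had an r of 0.52 across the 49 genes, against 0.09 across all genes. Averaged over both genotypes, Mcm6 and Pole2 fell at the thresholds of the study and none rose, against 0.549% lower and 0.587% higher among all genes. At the adjusted threshold, Mcm6 (-1.16, standard error 0.15, adjusted p = 0.0356 from limma) and Pole (-0.98, standard error 0.13, adjusted p = 0.0369) passed, against 0.173% of all genes lower, and Cdc6 came next (-0.98, adjusted p = 0.0792). All 4 irradiated arrays lay below all 4 untreated arrays in 5 of the 49 (Mcm10, Fen1, Dut, Slbp and E2f1), against 2.76% of all genes. Both adjusted calls were lost in most fits that left out 1 array, and the calls at the thresholds of the study changed too. The median of the 49 was -0.42 without replicate 1 and -0.61 without replicate 2 of untreated miR-21+/+ tumors, against -0.52 with all arrays.

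Whether radiation acted differently in the absence of miR-21 was tested as the difference between the radiation effects, miR-21-/- minus miR-21+/+. The estimate was positive in 41 of the 49, a smaller radiation difference in miR-21-/- tumors, with a median of 0.29. No gene of the 49 met the thresholds of the study in either direction, against 2.25% lower and 1.66% higher among all genes, and with limma the count of the 49 at an unadjusted p under 0.05 was 0, against 4.82% lower and 3.2% higher, as it was at the adjusted threshold. The smallest p-values belonged to Cdc45 (0.62, standard error 0.28, adjusted p = 0.633), Cdt1 (0.60, standard error 0.27, adjusted p = 0.637) and Gins1 (0.87, standard error 0.40, adjusted p = 0.639). Gins1 had 4.71 and 4.12 in irradiated and 4.45 and 4.35 in untreated miR-21-/- tumors, against 4.49 and 4.85 in irradiated and 5.81 and 5.23 in untreated miR-21+/+ tumors. Only the untreated miR-21+/+ arrays of Gins1 lay apart from the others. The sign of the estimate rested on single arrays. Of the 49, 8 were negative, but 20 without replicate 1 of untreated miR-21+/+ tumors (median 0.15), 19 without replicate 1 of irradiated miR-21+/+ tumors and 13 without replicate 2 of irradiated miR-21-/- tumors, and 3 and 5 without replicate 2 of untreated and of irradiated miR-21+/+ tumors. The 41 genes with positive estimates are by arithmetic the same 41 that were more negative in untreated tumors and in miR-21+/+ tumors. These counts are a single result.

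The direction held within genes. Of the 781 probe sets, 79.9% were lower in irradiated miR-21-/- than in irradiated miR-21+/+ tumors and 87.5% in the untreated genotype comparison, against 51.8% and 49.4% of all probe sets. After irradiation, 77.8% were lower within miR-21-/- and 90.7% within miR-21+/+ tumors, against 53.6% and 50.9%. In the untreated genotype comparison, 13 of the 49 genes had every probe set lower, among them Mcm3 with 19 of 19, Mcm6 with 20 of 20 and Tk1 with 10 of 10. Probe sets of a gene share their arrays and are no replicates. The mean level of a gene was hardly related to its untreated genotype difference (r = 0.13 across the 49). The 15 genes with an E2F match in their promoter window, of which Mcm3, Mcm5, Mcm6, Cdt1 and Cdc6 are written out above, had a median untreated genotype difference of -0.87 (6 of them called), those without a match -0.65 (26 genes, 7 called), and those without a window -0.73 (8 genes, 3 called). Tk1 was among the genes without a match. In the irradiated genotype comparison the medians of these sets were -0.51, -0.44 and -0.50, with 0, 2 and 0 genes called. The difference between the sets was not tested.

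Tk1 lies on chromosome 11, which also carries Mir21, in a stretch whose genes were mostly lower in miR-21-/- tumors. Of its 20 nearest measured coding genes in RefSeq order (10 on either side), 16 were lower in irradiated miR-21-/- tumors, 7 of them at the thresholds of the study, and 17 in untreated miR-21-/- tumors, 4 of them at the thresholds. The median difference of the 20 was -0.95 in irradiated and -0.65 in untreated tumors, with Birc5, the survivin gene and also a mitosis gene, lowest at -2.38 and -2.86. For radiation, the medians were -0.08 among miR-21-/- and 0.10 among miR-21+/+ tumors. The difference of Tk1 thus moved with that of its neighbors between genotypes, and the part of its position in its own difference was not tested. None of the other 48 genes is among the 20 neighbors.

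Further replication and S-phase genes, 52 measured of 54 listed, were mostly lower as well. In the irradiated genotype comparison 46 of the 52 had a negative difference and 6 a positive one, and in the untreated one 44 and 8. In the latter, 38 of the 52 were lower and 4 higher without overlap, against 5659 and 6407 of all 23152 genes. For radiation, 45 were negative and 7 positive in miR-21-/- tumors, and 42 and 10 in miR-21+/+ tumors. Their median was -0.44 in the irradiated and -0.59 in the untreated genotype comparison, with 7 and 8 lower at the thresholds and none higher, and -0.35 and -0.51 for radiation in miR-21-/- and miR-21+/+ tumors, with 2 and 3 lower. Dtl, part of the ubiquitin ligase that destroys CDT1 in S phase, had 4.84 and 4.95 in irradiated miR-21-/- and 6.19 and 6.26 in irradiated miR-21+/+ tumors (-1.33). Dbf4, which activates the CDC7 kinase at origins, differed by -1.10. Ccna2, the S-phase cyclin gene, had 5.92 and 6.18 in irradiated miR-21-/-, 6.99 and 7.15 in irradiated miR-21+/+, 7.18 and 7.24 in untreated miR-21-/- and 8.21 and 7.99 in untreated miR-21+/+ tumors. It was the only one of the 52 with an adjusted p under 0.05 for the mean radiation difference (-1.09, adjusted p = 0.0265 from limma). As for the 49 genes, the irradiated miR-21-/- arrays were lowest and the untreated miR-21+/+ arrays highest, but both irradiated miR-21+/+ arrays of Ccna2 lay below both untreated miR-21-/- arrays.

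The regulators upstream were less uniform. Of 12 genes of the E2F and RB family, none met the thresholds in irradiated tumors, where E2f8 differed by -0.93, E2f5 by -0.72 and E2f3 by -0.72. In untreated tumors 1 fell and 1 rose in miR-21-/- tumors, E2f8 (-1.21) and Rb1 (1.59). Rb1, named after its values were seen, had 9.69 and 9.58 in untreated miR-21-/- tumors and 7.89 and 8.20 in untreated miR-21+/+ tumors, against 9.08 and 10.54 in irradiated miR-21-/- and 9.43 and 9.27 in irradiated miR-21+/+ tumors, which overlapped. Among 12 G1 cyclins, CDKs and CDK inhibitors, 1 fell and 1 rose in irradiated miR-21-/- tumors. Ccnd1, cyclin D1, had 7.53 and 8.42 in miR-21-/- and 9.44 and 8.87 in miR-21+/+ tumors (-1.18), and Cdkn1c, the inhibitor p57, had 6.43 and 6.41 in miR-21-/- and 5.26 and 5.44 in miR-21+/+ tumors (1.07). Cdk6, a partner of cyclin D, differed by 0.84. None of the 12 met the thresholds in untreated tumors.

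Cdkn1a, which encodes the p53-induced CDK inhibitor p21, moved opposite to the replication genes with radiation. It had 8.11 and 8.77 in irradiated and 7.07 and 7.04 in untreated miR-21-/- tumors (1.39, adjusted p = 0.313 by limma), while it had 8.83 and 8.53 in irradiated and 7.68 and 6.52 in untreated miR-21+/+ tumors (1.58, adjusted p = 0.229). All irradiated arrays lay above all untreated arrays, and both comparisons met the thresholds of the study. The genotypes differed by -0.24 in irradiated and -0.05 in untreated tumors.

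The genes listed for G2 and mitosis, 44 of them measured of 45, were lower in the same comparisons. Their median was -1.30 in irradiated miR-21-/- tumors, with 32 of 44 lower at the thresholds, and -1.33 in untreated miR-21-/- tumors, with 36 lower. For radiation, the medians were -0.75 among miR-21-/- and -0.83 among miR-21+/+ tumors, with 7 and 10 lower. Mki67, the proliferation antigen Ki-67, had 7.33 and 7.01 in irradiated miR-21-/- tumors, 8.49 and 8.92 in irradiated miR-21+/+ tumors, 8.06 and 8.25 in untreated miR-21-/- tumors and 9.77 and 9.27 in untreated miR-21+/+ tumors. Top2a, which untangles DNA before division, differed by -1.37 in the irradiated and -1.54 in the untreated genotype comparison, Ect2 by -1.67 and -1.07, and Prc1 by -1.87 and -1.67. In irradiated tumors the replication genes thus had a median of -0.47 and the mitosis genes of -1.30. The difference between the lists was not tested.

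**Figure D5:**
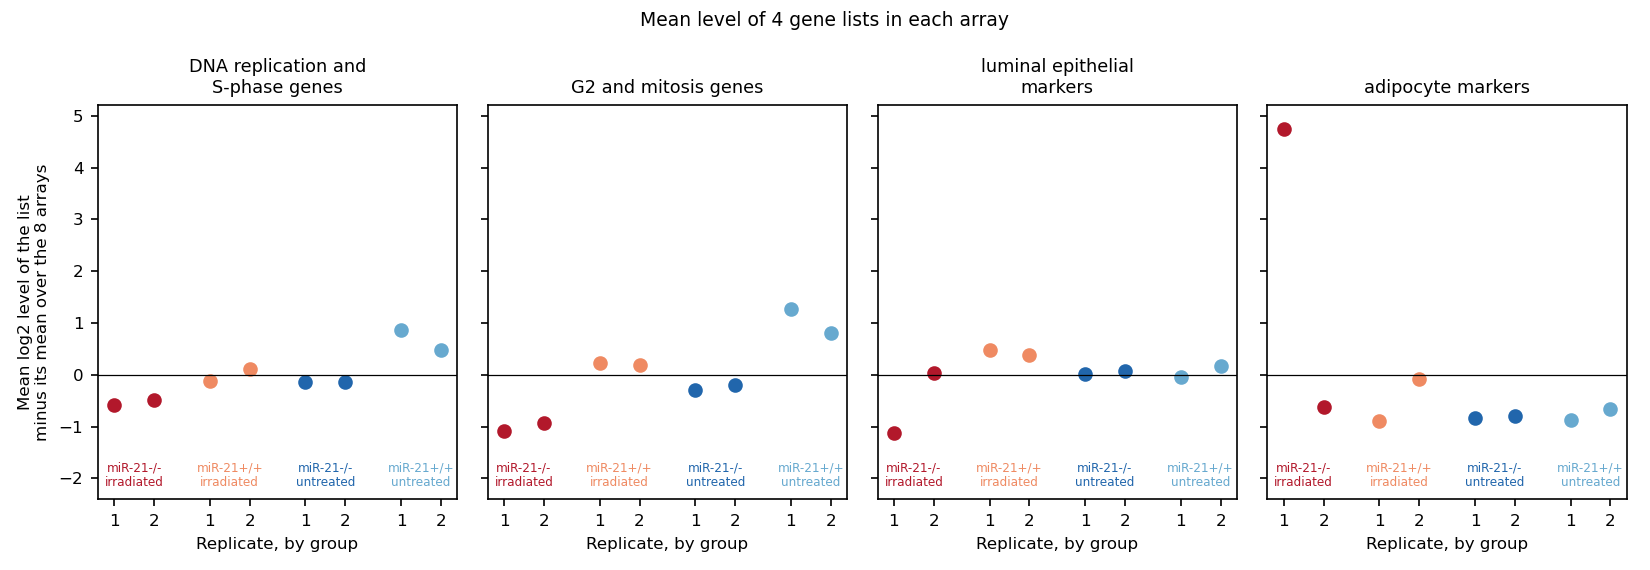
Mean log2 level of 4 gene lists in each array, minus the mean of that list over the 8 arrays. The replication genes and the 44 mitosis genes fall in the same order of groups, with irradiated miR-21-/- arrays lowest and untreated miR-21+/+ arrays highest, whereas replicate 1 of irradiated miR-21-/- tumors stands out in the adipocyte markers (10.12 against 4.49 to 5.30) and the luminal markers.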

How the data were processed

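Total RNA of 8 tumor samples was hybridised to Affymetrix mouse gene arrays. The authors deposited 1 log2 signal for each exon-level probe set and array, made with RMA, which subtracts background, equalizes the distributions of the arrays and then summarizes probes. The submitters' processing notes name Affymetrix Expression Console 1.4 and Transcriptome Analysis Console 3.1, and the genome build is not given in the sources used here. Of 269751 probe sets, 233753 are listed with 1 symbol, 5139 with several and 30859 with none. The last 2 kinds were left out (7 shared by 1 of the 49 genes and another gene), and each of 23152 genes was given the mean log2 value of its probe sets (median 8 probe sets). Arrays have no read depth, so their number limits the precision.

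One limma 3.58.1 model (R 4.3.3) with a mean for each of the 4 groups was fitted to all 8 arrays and all genes (4 residual degrees of freedom, prior 3.54), with two-sided tests and Benjamini-Hochberg adjustment over all genes. It was tested on simulated data. Tables and figures used Python 3.11.15, pandas 2.3.3 and matplotlib 3.10.9. The 49 genes, the other lists and the tests were chosen with earlier results of these data known. Values in every array are given for up to 8 of the 49 with the smallest p past the thresholds in each comparison of groups (at least 3), for the 3 with the smallest p in the interaction and the mean effects, and for Pcna, Mcm2, Cdc6, Ccne1, E2f1, Tk1 and Rrm2. Of the other lists the 3 genes with the smallest p in irradiated tumors, Cdkn1a, Ccnd1, Mki67 and Top2a are named. The correlations of same-numbered arrays lay between -0.13 and 0.04, so the replicate numbers were not used as pairs. Alternatives were the 4 arrays of a comparison alone, no moderation, a variance trend, only the genes above the median level, another quantile step, centring, the median of the probe sets, array weights, a replicate block, an adipocyte covariate and leaving out each array.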

Additional observations from a re-analysis of the deposited data

How the results depend on the processing

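For the 28 pairs of a gene and a comparison that were named for the smallest p, 494 values under other settings were counted. None of the 494 changed sign, 470 stayed on the same side of the thresholds, 9 were no longer past them and 15 became so. Genes given in every comparison were counted only where they were among these pairs. For Rrm2 in miR-21-/- tumors, irradiated replicate 1 lay above both untreated arrays and irradiated replicate 2 below both. The sign of that radiation difference therefore rested on replicate 2. Over the 49, negative differences numbered 44 without replicate 2 of irradiated miR-21+/+ tumors, against 48, in the irradiated genotype comparison, and between 3 and 20, against 8, in the interaction. Counts of the 49 genes past the thresholds moved too, and the cause was not tested except where fewer arrays were used. For the counts by setting below, the share of all genes at the same setting is not given beside them. They are therefore no result about the 49 genes. Each fit without 1 array of a group assumes that the lone array varies like the other groups.

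At the thresholds of the study, centring on the array median gave 5 lower genes in the irradiated genotype comparison, 8 for radiation in miR-21+/+ tumors and 4 for the mean radiation difference, against 2, 5 and 2. With the median of the probe sets the counts were 7, 13 and 4, and 15 for the mean genotype difference, against 6. Without moderation, 1 gene was lower for radiation in miR-21-/- tumors and 1 for the mean radiation difference, and with the adipocyte covariate 1 for radiation in miR-21-/- tumors. Leaving out each array gave 2 to 10 lower genes in the irradiated and 6 to 24 in the untreated genotype comparison, 3 to 19 for radiation in miR-21+/+ and 1 to 2 in miR-21-/- tumors, 5 to 11 for the mean genotype and 1 to 4 for the mean radiation difference. The interaction had 0 in every fit.

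At the adjusted threshold, the call of Tk1 in irradiated tumors was lost (0 genes) with the 4 arrays alone, no moderation, quantile normalization, the median of the probe sets, array weights and the replicate block, with 0 to 11 genes when an array was left out. In untreated tumors the 3 genes were 19 with the 4 arrays alone, 17 with array weights, 16 with the adipocyte covariate, 5 among genes above the median level, 1 with the median of the probe sets, and 0 with no moderation, quantile normalization or the replicate block (0 to 16 without 1 array). For radiation in miR-21+/+ tumors, the 4 arrays alone gave 1, and array weights and the adipocyte covariate 5 each (0 to 5 without 1 array), and in miR-21-/- tumors leaving out arrays gave 0 to 7. The mean genotype difference had 0 without moderation, 7 with the replicate block and 22 with the adipocyte covariate (0 to 28 without 1 array). The mean radiation difference had 0 without moderation, with the median of the probe sets or with the replicate block, and 5 with the adipocyte covariate (0 to 22 without 1 array). The replicate block left all counts at the thresholds of the study as they were (2 in the irradiated and 16 in the untreated genotype comparison).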

Other observations

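DNA repair genes, 30 measured of 34 listed, had medians of -0.43 in the irradiated and -0.40 in the untreated genotype comparison. None met the thresholds in irradiated tumors, where Fanca (-0.95), Fanci (-1.0) and Bard1 (-0.90) had the smallest p, and 5 fell in untreated miR-21-/- tumors. Brca1, needed for repair by homologous recombination, had 4.66 and 4.57 in untreated miR-21-/- tumors and 6.59 and 6.11 in untreated miR-21+/+ tumors (-1.74, adjusted p = 0.028 by limma). The recombination gene Rad54l had 4.27 and 4.57 in miR-21-/- and 6.25 and 6.02 in miR-21+/+ tumors (-1.71, adjusted p = 0.0375). Both genes were named after their values were seen. Their radiation differences were -0.28 and 0.04 in miR-21-/- tumors and -1.31 and -1.18 in miR-21+/+ tumors, with interaction estimates of 1.03 (adjusted p = 0.438 from limma) and 1.23 (adjusted p = 0.354).

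The probe set shared by Mcm7 and the microRNA Mir25, which lies within Mcm7, did not follow the gene. It had 5.42 and 5.74 in untreated miR-21-/- tumors and 5.30 and 5.42 in untreated miR-21+/+ tumors, a difference of 0.22, against -1.06 for the 23 probe sets of Mcm7 alone. T cell, B cell and skeletal muscle markers had medians of 0.03, 0.14 and -0.58 in the irradiated and 0.04, 0.20 and -0.38 in the untreated genotype comparison, and endothelial markers 0.24 and -0.67.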
